A study of Mus musculus with 18 samples.

Results

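Transcripts of the cytosolic ribosomal proteins were measured by 3′ mRNA sequencing (QuantSeq) in AT3 cells, a mouse mammary carcinoma line, after inhibition of P300/CBP and stimulation with IFNγ. A gene was taken as a member where its Ensembl identifier is annotated as protein-coding and its symbol is an Rpl or Rps name. The S6 kinase genes (Rps6k) and symbols that contain -ps, the naming of pseudogene copies, were left out. This gave 86 genes of the 43629 identifiers in the count table, and 83 of them had enough counts to be tested among 11964 genes. The 3 that did not are Rpl10l and Rpl39l, which had 0 counts in all 18 libraries, and Rpl3l, which had 6 counts in all. They are variants of Rpl10, Rpl39 and Rpl3 that are best known from testis and from muscle.

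Cells were treated for 1 h with DMSO vehicle, with 250 nM A-241 or with 1000 nM A-485, and each arm was then kept for 2 h with IFNγ (1 ng/mL) or with its vehicle. A-241 and A-485 are inhibitors of the acetyltransferase activity of the co-activators P300 and CBP, and they were used at different doses. The 6 conditions (DMSO, A-241, A-485, IFNγ, A-241 with IFNγ and A-485 with IFNγ) hold 3 libraries each, all from cells of 1 line harvested at 3 h. The labels call the triplicates biological and the methods call them technical, so the p-values below measure the spread between these libraries, which may be technical. The epithelial markers Krt8, Krt18, Epcam and Cdh1 had between 227 and 4235 counts in every library, while Krt19 had 0 or 1 count. Of the mesenchymal markers, Vim had 384 to 1345 counts, while Col1a1 had at most 7 and Col1a2 at most 2. The summed level of 5 haematopoietic markers was at most 19.1 CPM and that of 2 endothelial markers at most 4.13 CPM.

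Each ribosome has a small subunit that reads the mRNA and a large subunit that joins amino acids, and each carries its own set of proteins around the ribosomal RNA. Their genes lie on many chromosomes, yet the proteins are needed in equal numbers, and they are among the most abundant mRNAs of a growing cell. In mammals most of these mRNAs are known to begin with a C followed by a run of pyrimidines (C and T), the 5′ terminal oligopyrimidine tract, through which mTOR signalling sets how strongly they are translated. That control acts on translation, and counts of mRNA do not record it.

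Such a tract lies at the start of transcription, and the windows below, from RefSeq on GRCm38.p6, run from 15 bases before the annotated start to 15 bases from it on. The capitals mark the longest unbroken run of C and T that has at least 1 base within 10 bases of the start. The first 4 belong to genes that were far lower in 2 of the libraries than in the rest, and the last 3 to genes that were far higher in them, a choice made after the values were seen.
Rpl22l1, chr3:28805493-28805522, plus strand: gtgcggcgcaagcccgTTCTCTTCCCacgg
Rps15a, chr7:118116133-118116162, minus strand: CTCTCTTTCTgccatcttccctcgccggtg
Rpl7a, chr2:26910792-26910821, plus strand: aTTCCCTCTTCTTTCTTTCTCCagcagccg
Rpl11, chr4:136053379-136053408, minus strand: ctgaCCCataaggccacggggccggaagtc
Rpl35, chr2:39005117-39005146, minus strand: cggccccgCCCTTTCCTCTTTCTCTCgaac
Rpl14, chr9:120571502-120571531, plus strand: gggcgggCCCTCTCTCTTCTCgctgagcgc
Rpl41, chr10:128549154-128549183, minus strand: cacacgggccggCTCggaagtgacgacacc
Long runs stand on both sides, 21 bases in Rpl7a and 18 in Rpl35, which moved in opposite directions in those libraries. Short runs do too, with 3 bases in Rpl11 and 3 in Rpl41. The run depends on which annotated start is taken, as in Rpl35a with 4, 13 or 5 bases. The starts used in these cells were not measured, so a short run here does not show that the mRNA lacks a tract. Windows were found for 66 of the 86 symbols, 78 windows in all since some genes have several starts. A run of at least 6 pyrimidines was present in 51.3% of them, against 29.2% of all 32851 windows of the table. The annotated start base was a C in 29.5% of the members' windows and in 16.3% of all. Within the full windows, from 250 bases before to 50 after the start and on both strands, CCGGAAG was found in 34.6% of the members' windows and in 8.86% of all. CTTTCC was found in 51.3% against 26.6%, AAGATGG in 15.4% against 6.34% and TATAAA in 8.97% against 13.6%. These are matches of letters, and no binding was measured here.

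Total counts per library were between 3417167 and 7856830, and 11.4% to 13.7% of them fell on the 86 genes. By condition the share was 12.3% ± 0.698 (SD, n = 3) in DMSO, 12.2% ± 0.861 in A-241, 12.5% ± 0.695 in A-485, 12.4% ± 0.864 in IFNγ, 12.9% ± 0.603 in A-241 with IFNγ and 13.3% ± 0.381 in A-485 with IFNγ. The lowest shares were 11.4% in IFNγ replicate 2 and 11.6% in DMSO replicate 3. In these 2 libraries a single non-coding gene, Gm42418, took 23.1% and 20.1% of the counts, against 7.11% to 16.3% in the other 16. With Gm42418 taken out of the totals, both libraries (14.8% and 14.5%) lay inside the range of the others, 13.7% to 15.4%.

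The same 2 libraries stood apart gene by gene. For each of the 83 genes the log2 level in CPM (counts scaled to library size, with TMM factors, which correct for composition) was compared with its mean over the other 16 libraries. Deviations ran from −3.39 to 1.74 in DMSO replicate 3 and from −3.42 to 1.67 in IFNγ replicate 2. Of the 83 genes, 39 lay below and 23 above the whole range of the other 16 libraries in both, and 18 were lower by more than 1 in both. Over all genes tested these shares were 23.4%, 20.9% and 12.8%. Across the 83 genes the deviations of the pair had a Pearson r of 0.994 and a Spearman rho of 0.994. This describes 2 libraries that share a large content of Gm42418, and the genes are not independent replicates. A wide spread was also found over all genes tested. Around each gene's mean over all 18 libraries, the SD was 1.02 and 0.95, and over the members 0.94 and 0.87. Among the members, larger shares than over all genes lay outside the range of the 16 libraries or were lower by more than 1. A narrower range over the 16 libraries is easier to leave, and other genes of like level were not compared. These shares therefore do not show that ribosomal protein genes were particularly affected. In the other 16 libraries the SD around that 18-library mean was 0.10 to 0.33 over the members and 0.33 to 0.57 over all genes.

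**Figure D1:**
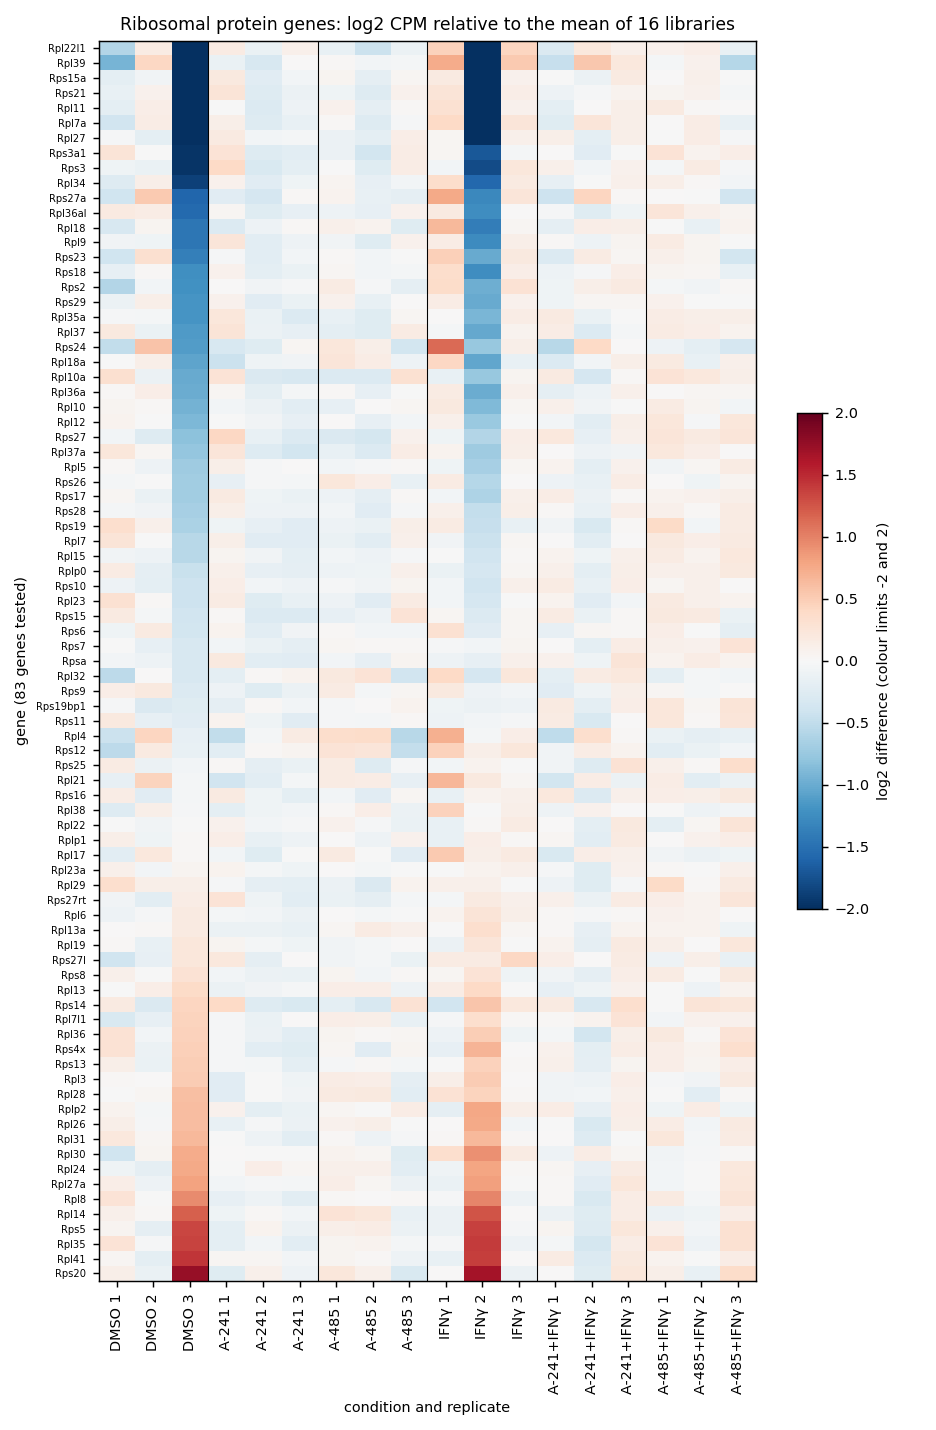
Log2 CPM of the 83 tested ribosomal protein genes (rows, ordered by their value in DMSO replicate 3) in the 18 libraries (columns, grouped by condition), each relative to the gene's mean over the 16 libraries other than DMSO replicate 3 and IFNγ replicate 2. Those 2 columns carry nearly all of the strong colour, from −3.42 to 1.74, with the same genes low and the same genes high in both.

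Rpl22l1, a variant of Rpl22 that can take its place in the large subunit, had the widest drop. It stood at 23.1 and 22.6 CPM in the 2 libraries and between 164 and 339 CPM in the other 16. Rpl39, a short protein of the exit tunnel, fell to 63.6 and 93.8 CPM from a range of 256 to 818, and Rps15a to 110 and 164 CPM from 586 to 782. Rps3, which also has a role in DNA repair, read 427 and 483 CPM against 1346 to 2195. At the other end Rps20 read 11690 and 11140 CPM against 2832 to 4504, and Rpl41, the smallest of the set, 8280 and 8007 CPM against 2554 to 3514. Rpl22l1 and Rps20 thus do not overlap between the pair and the rest, in opposite directions. Rps15a, Rps20 and Rpl41 were singled out after their values were seen.

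None of the features examined ordered these deviations strongly. Spearman's rho with the deviation in DMSO replicate 3 was 0.24 for the GC content of the last 200 bases, 0.21 for the mean count, 0.12 for transcript length, 0.07 for the number of small nucleolar RNA genes inside the gene and −0.02 for the length of the 3′ UTR. For the pyrimidine run at the start it was 0.064 over 63 genes. What set these libraries apart was not tested.

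**Figure D2:**
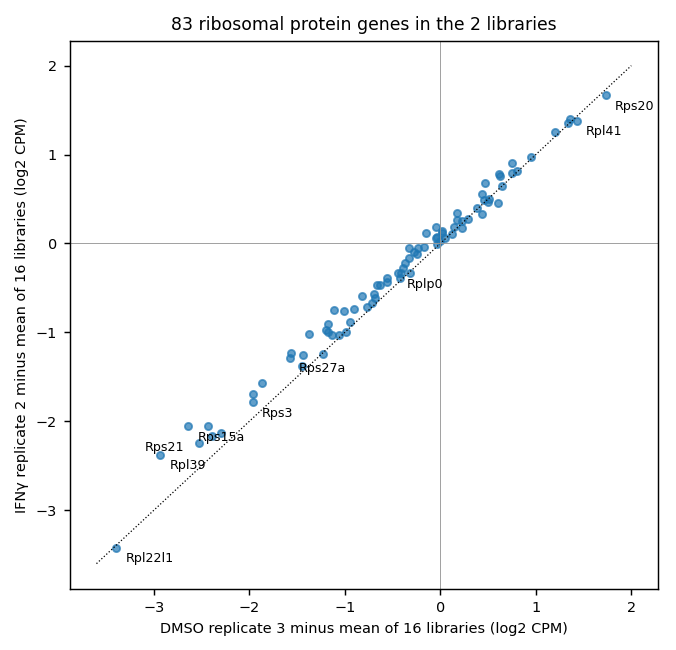
Each point is 1 of the 83 genes, with its deviation in DMSO replicate 3 on the horizontal axis and in IFNγ replicate 2 on the vertical axis, both as log2 CPM minus the mean of the other 16 libraries. The dotted line marks equal deviations. The points follow it from Rpl22l1 (−3.39 and −3.42) to Rps20 (1.74 and 1.67).

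Outside this pair the level of each gene varied less. The SD over the other 16 libraries, with all 6 conditions mixed, had a median of 0.16 on the log2 scale. It ran from 0.063 for Rpl6 to 0.437 for Rpl39. Other genes of like level were not compared, and counting noise is small at high counts, so these values do not show tight control.

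Because 1 of 3 DMSO libraries and 1 of 3 IFNγ libraries stand apart, each comparison is given with all 18 libraries and again without these 2, which leaves 2 libraries each of DMSO and IFNγ. The test was edgeR's quasi-likelihood test in a model of all libraries. Its p-values were corrected over every tested gene after Benjamini and Hochberg, and calls needed an adjusted p under 0.01. In all 11 comparisons 0 ribosomal protein genes were called, with all libraries and without the 2, and also by DESeq2 and by limma-voom on all libraries. This does not show that they did not change. With all libraries the 95% interval of a member's log2 fold change had a median half-width of 0.456, and 60 to 73 of the 83 intervals lay within −1 to 1, depending on the comparison of conditions. It was 79 to 83 of 83 without the 2 libraries. The interactions of inhibitor and IFNγ were less precise, with a median half-width of 0.6445. For them 57 (A-241) and 52 (A-485) of the 83 intervals lay within −1 to 1, and 79 and 74 without the 2 libraries.

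**Figure D3:**
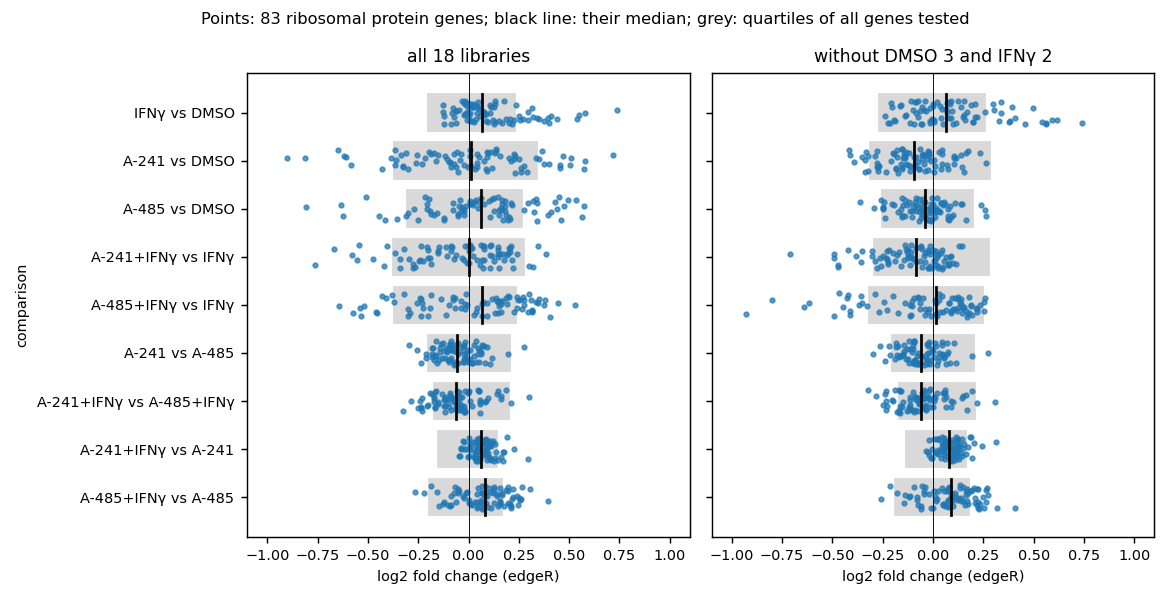
Log2 fold changes (edgeR) of the 83 genes in the 9 comparisons between conditions, with all 18 libraries (left) and without DMSO replicate 3 and IFNγ replicate 2 (right). Points are genes, black lines their medians and grey boxes the quartiles of all genes tested. On the left the members spread most where DMSO or IFNγ is the reference, up to −0.90 and 0.72 for A-241 against DMSO. On the right the same comparison runs from −0.42 to 0.26.

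The first comparison asks what IFNγ alone did at 2 h. No ribosomal protein gene was called, where 1.3% of all genes were. At an unadjusted p under 0.05 it was 0 of 83 members and 8.49% of all genes, while DESeq2 and limma-voom each found 1 member. The median log2 fold change of the members was 0.07, beside 0.00 for all genes, and their middle 50% spanned 0.22 against 0.43. Again 0 members were called without the 2 libraries (2.03% of all genes), and 10 members, all higher, had an unadjusted p under 0.05, with 18.4% of all genes.

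The members nearest to a call were Rps27l and Rps2. Rps27l, a variant of Rps27 that p53 is known to induce, stood at 92.3, 108 and 143 CPM in DMSO and at 137, 137 and 163 CPM in IFNγ. The groups overlap through DMSO replicate 3, which has the highest DMSO level. The log2 fold change was 0.35 (SE 0.17, adjusted p = 0.59 by edgeR's quasi-likelihood test). The fold change was 0.56 without them (95% interval 0.25 to 0.87, adjusted p = 0.0364, edgeR), which misses the threshold of 0.01. Rps2, a small-subunit protein near the mRNA entry, read 257, 370 and 167 CPM in DMSO and 498, 196 and 470 CPM in IFNγ. Its log2 fold change of 0.55 (SE 0.29) became 0.61 without the 2 libraries (95% interval 0.29 to 0.94, adjusted p = 0.0304, edgeR). Rps2 shares exon bases with Snhg9 and Snora64 and has 31 near-identical copies, so its reads can be split between genes. Rps12, second by p in the full set, had a log2 fold change of 0.41 (SE 0.20), and the direction turned when its named copies were added (−0.06).

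Rpl13a is released from the ribosome in IFNγ-treated myeloid cells and then blocks translation of inflammatory mRNAs. In AT3 cells its mRNA stood at 2399, 2447 and 2709 CPM in DMSO and 2387, 3028 and 2455 CPM in IFNγ, which overlap. The log2 fold change was 0.06 (95% interval −0.24 to 0.35). Rplp0, Rplp1 and Rplp2 form the stalk that recruits elongation factors, and their fold changes lay between −0.01 and 0.05. Rpl5 and Rpl11, which with 5S RNA can bind Mdm2, had log2 fold changes of 0.02 (95% interval −0.40 to 0.45) and 0.24 (−0.84 to 1.31). Rpl11 was at 943, 1182 and 199 CPM in DMSO, and replicate 3 is far below the others. Its value was 0.21 without the 2 libraries (−0.11 to 0.53).

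A-241 on unstimulated cells gave the most calls over all genes, 4.35%, and 0 among the members. At an unadjusted p under 0.05 there were 4 of 83 members, all lower, against 23.2% of all genes. DESeq2 found 10 and limma-voom 3 by this measure. The 4 were Rpl8, Rpl29, Rpl31 and Rpl35, all of the large subunit. Without the 2 libraries 0 members were called (8.13% of all genes) and 7 had an unadjusted p under 0.05, all lower (27.9% of all genes). The median of the members was 0.01 with all libraries and −0.09 without the 2, with 44 and 21 of the 83 members on the higher side. For all genes the medians were 0.01 and −0.01.

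Rpl8, which lies close to the peptidyl transferase centre, read 2320, 1910 and 3699 CPM in DMSO and 1722, 1784 and 1655 CPM in A-241. The groups do not overlap, and DMSO replicate 3 is the highest of all. The log2 fold change was −0.62 (SE 0.27, adjusted p = 0.176, edgeR), and it was −0.33 without the 2 libraries (adjusted p = 0.103, edgeR). Rpl35, at the mouth of the exit tunnel, read 1746, 1418 and 3681 CPM in DMSO against 1260, 1386 and 1245 CPM, and its log2 fold change went from −0.81 to −0.32 when they were left out. Both differences were smaller without the libraries that stand apart, and remained negative.

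Rpl29 behaved otherwise. This large-subunit protein was at 317, 272 and 273 CPM in DMSO, 246, 222 and 220 CPM in A-241 and 231, 205 and 264 CPM in A-485. All inhibitor libraries lie below all DMSO libraries, and DMSO replicate 3 is no outlier here. Rpl29 was named for its low p from these same values, so the lack of overlap is no further support. For A-241 the log2 fold change was −0.32 (SE 0.14, adjusted p = 0.186, edgeR), and −0.39 without the 2 libraries (95% interval −0.68 to −0.11, adjusted p = 0.0583, edgeR). Rpl31 read 961, 859 and 1307 CPM in DMSO and 825, 777 and 718 CPM in A-241, with log2 fold changes of −0.43 and −0.27.

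**Figure D4:**
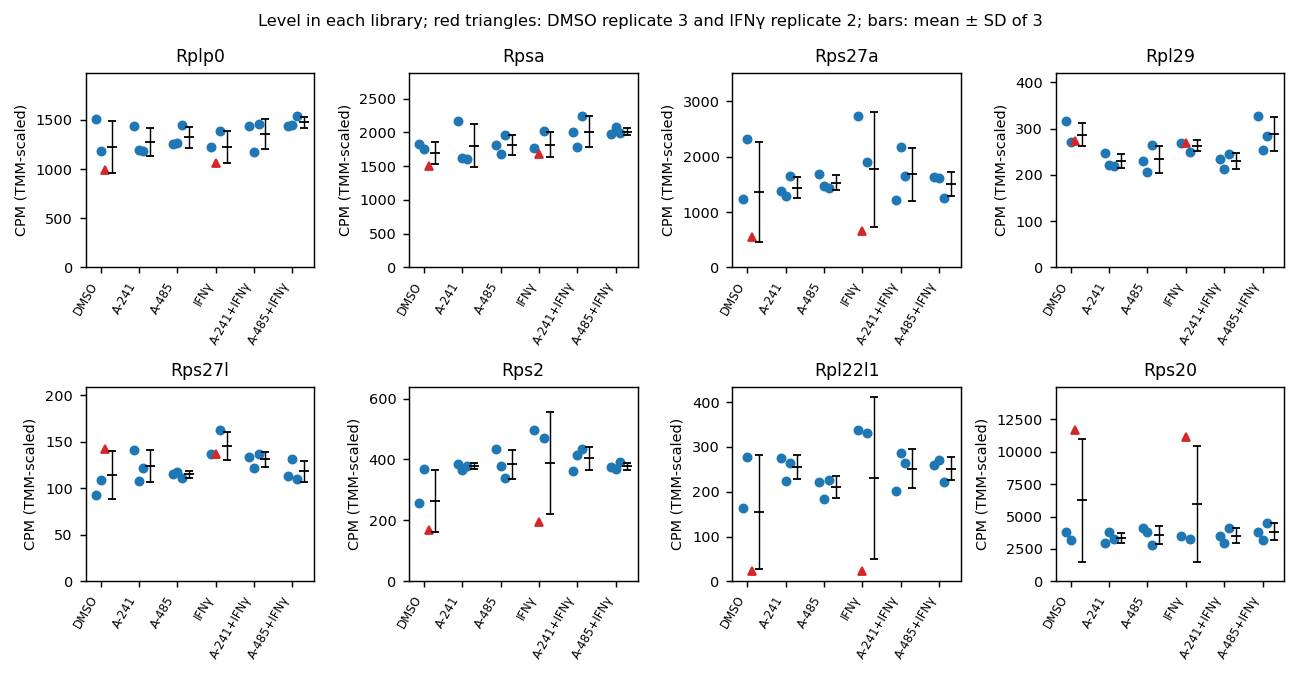
Level of 8 ribosomal protein genes in CPM (TMM-scaled, axes from 0) in each library of the 6 conditions, with the mean and SD of 3 libraries as bars. Red triangles mark DMSO replicate 3 and IFNγ replicate 2. They sit among the other libraries for Rpl29 and near them for Rpsa, far below them for Rpl22l1 (23.1 and 22.6 CPM) and far above them for Rps20 (11690 and 11140 CPM).

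A-485 against DMSO called 0 members and 0.66% of all genes. At an unadjusted p under 0.05 it was 0 of 83 members, against 12.3% of all genes, with 1 by DESeq2 and 1 by limma-voom. Without the 2 libraries 0 members were called (2.46% of all genes) and 1 had an unadjusted p under 0.05 (16.8% of all genes). That gene was Rpl29, with a log2 fold change of −0.30 with all libraries (95% interval −0.60 to 0.00) and −0.37 without the 2 (−0.65 to −0.08, adjusted p = 0.152, edgeR). Both inhibitor comparisons use the same DMSO libraries, so the like values for Rpl29 are not independent. The median of the members was 0.06, and −0.04 without the 2 libraries.

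For several genes often taken as steady references the values follow, and the intervals do not show that these genes were steady. Rpsa, also described as a laminin receptor, stood at 1821, 1749 and 1503 CPM in DMSO, 2165, 1625 and 1612 CPM in A-241 and 1807, 1673 and 1964 CPM in A-485, which overlap throughout. Rps6, the target of S6 kinase, had log2 fold changes of 0.01 for A-241 (95% interval −0.35 to 0.37) and 0.05 for A-485 (−0.31 to 0.42). Rplp0 had 0.05 (−0.31 to 0.42) and 0.11 (−0.26 to 0.47). Rps27a, made as a fusion with ubiquitin, was far less certain, at 1227, 2322 and 543 CPM in DMSO, and its interval for A-241 ran from −0.87 to 1.03. Rpl3, which lies at the peptidyl transferase centre, had −0.30 for A-241 (−0.68 to 0.08) and −0.15 for A-485 (−0.54 to 0.23). Rps3 had 0.50 for A-241, and 0.07 without the 2 libraries.

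With IFNγ present, A-241 against IFNγ alone called 0 members and 4.09% of all genes. At an unadjusted p under 0.05 it was 0 of 83 members against 20.2% of all genes, with 2 by DESeq2 and 0 by limma-voom. Without the 2 libraries it was 0 called (7.82% of all genes) and 6 at the unadjusted threshold, all lower (26.7% of all genes). The median of the members was 0.00, and −0.08 without the 2. Rpl21, a large-subunit protein, had the lowest p, with 356, 256 and 231 CPM in IFNγ and 174, 248 and 208 CPM with A-241. The groups overlap, and the log2 fold change was −0.42 (SE 0.21, adjusted p = 0.275, edgeR).

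A-485 with IFNγ against IFNγ alone called 0 members and 0.552% of all genes. At an unadjusted p under 0.05 there were 2 of 83 members, both lower, against 14.7% of all genes, with 5 by DESeq2 and 1 by limma-voom. Without the 2 libraries it was 0 called (2.68% of all genes) and 16 at the unadjusted threshold, all lower (25.5% of all genes). The 2 were Rpl30 and Rpl17. Rpl30 read 457, 683 and 409 CPM in IFNγ and 346, 356 and 368 CPM with A-485, without overlap. Its log2 fold change of −0.53 (SE 0.24, adjusted p = 0.313, edgeR) shrank to −0.29 without the 2 libraries. Rpl17, which lines the exit tunnel, read 740, 557 and 583 CPM against 487, 476 and 483 CPM, again without overlap. Its log2 fold change was −0.38 (SE 0.17), and −0.47 without the 2 (adjusted p = 0.078, edgeR). The lowest adjusted p without the 2 libraries was that of Rps24, 0.0613 by edgeR, where IFNγ replicate 1 alone stood at 1041 CPM against 282 and 518 in the other IFNγ libraries; it is named here after its values were seen.

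The response to IFNγ within each inhibitor compares libraries other than these 2, which still enter the estimate of the spread that all comparisons share. Leaving them out narrowed the median half-width of the members' intervals from 0.456 to 0.257. With A-241 the response called 0 members and 0.192% of all genes. It was 0 of 83 against 3.74% of all genes at an unadjusted p under 0.05, with 0 by DESeq2 and 0 by limma-voom. Of the 83 members 74 were on the higher side, with a median of 0.06 beside 0.00 for all genes. Their middle 50% spanned 0.07 against 0.29. The members vary together, so such a count of directions is a description and no test. Per library their median deviation from the mean of all 18 libraries was 0.06, −0.09 and −0.09 in A-241 and 0.02, −0.09 and 0.12 with IFNγ, which overlap. It was 0 members called (0.478% of all genes) and 0 at the unadjusted threshold (7.7%) without the 2 libraries. Rps15 had the lowest p, with 898, 735 and 730 CPM in A-241 and 989, 808 and 899 CPM with IFNγ, a log2 fold change of 0.19 (95% interval −0.20 to 0.58). Rpsa followed, with 0.16 (−0.18 to 0.49). Shifts of this size are within the spread between libraries for each gene.

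With A-485 the response to IFNγ called 0 members and 0.802% of all genes, and 1 of 83 against 5.83% at the unadjusted threshold, with 1 by DESeq2 and 1 by limma-voom. The median was 0.08 beside −0.01 for all genes, with 62 of 83 on the higher side. Leaving out the 2 libraries gave 0 members called (1.67% of all genes) and 4 at the unadjusted threshold, all higher (12.5% of all genes). The single member with all libraries was Rpl29, at 231, 205 and 264 CPM in A-485 and 328, 255 and 284 CPM with IFNγ. These overlap, and the log2 fold change was 0.31 (SE 0.14, adjusted p = 0.834, edgeR). Rps27rt, a near copy of Rps27 whose reads may be shared with it, came next with 0.27 (95% interval −0.06 to 0.59).

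Whether an inhibitor changed the response to IFNγ was tested as an interaction. For A-241 it called 0 members and 0.0334% of all genes, and at an unadjusted p under 0.05 it was 0 of 83 members against 3.35% of all genes, with 0 by DESeq2 and 0 by limma-voom. For A-485 it called 0 members and 0% of all genes by edgeR, and 1 of 83 members against 4.17% at the unadjusted threshold, with 2 by DESeq2 and 1 by limma-voom. Leaving out the 2 libraries gave 0 members called for either inhibitor, with 0.14% of all genes for A-241 and 0.0247% for A-485. At the unadjusted threshold it then gave 3 members for A-241, all lower (8.79% of all genes), and 8 for A-485, 3 higher and 5 lower (13.2% of all genes). The single member with all libraries was Rpl29, with a difference of responses of 0.43 (SE 0.20) on the log2 scale. Rps27l had −0.27 for A-241 (95% interval −0.76 to 0.23) and −0.31 for A-485 (−0.80 to 0.19). Both interactions share the DMSO and IFNγ libraries.

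The inhibitors themselves were set side by side at 250 nM and 1000 nM, so their doses differ and compound and dose cannot be told apart. Without IFNγ the comparison of A-241 with A-485 called 0 members and 0.368% of all genes. It was 0 of 83 against 8.15% at an unadjusted p under 0.05, with 1 by DESeq2 and 0 by limma-voom. Rpl13a had the lowest p, at 2211, 2211 and 2161 CPM in A-241 and 2470, 2691 and 2580 CPM in A-485. All A-241 libraries lie below all A-485 libraries, and the log2 fold change was −0.23 (95% interval −0.53 to 0.06, adjusted p = 0.801, edgeR). Rps9 followed with −0.21 (−0.55 to 0.13). With IFNγ it called 0 members and 0.518% of all genes, and 1 of 83 against 6.5% at the unadjusted threshold, with 1 by DESeq2 and 1 by limma-voom. That member was Rpl29, with 234, 212 and 246 CPM against 328, 255 and 284 CPM and a log2 fold change of −0.32 (95% interval −0.63 to −0.02). The response to IFNγ with A-485 and its interaction use the same A-485 with IFNγ libraries, so these values for Rpl29 are not independent. Rpl36 had −0.25 (−0.65 to 0.15). The members' medians were −0.06 in both settings, with 60 and 63 of 83 on the lower side. Leaving out the 2 libraries gave 0 members called in both, with 1.73% of all genes without IFNγ and 1.29% with it. It gave 1 and 3 members at the unadjusted threshold, all lower, against 16.3% and 13.4% of all genes. A p above the threshold does not show that the compounds act alike on these genes.

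Of 46 large-subunit genes and 31 small-subunit genes, 0 were called in any comparison. For A-241 against DMSO their medians were −0.06 and 0.08 with all libraries and −0.14 and −0.09 without the 2, so the sign for the small subunit turned with these libraries. The 4 genes with an unadjusted p under 0.05 in this comparison were all of the large subunit, and a difference between the subunits was not tested. For IFNγ against DMSO they were 0.04 and 0.11.

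Variants of ribosomal proteins can replace their relatives in some tissues, and these cells carried a few of them. QuantSeq yields about 1 read per transcript near its 3′ end, so CPM was taken as it stands and was not divided by length. Rpl22 stood at 712 to 971 CPM over the 18 libraries, and Rpl22l1 at 164 to 339 CPM in the 16. Rpl7 stood at 1733 to 3059 CPM and Rpl7l1, a factor of ribosome assembly related to it, at 63.2 to 106 CPM. Rpl36a and its variant Rpl36al read 660 to 1473 CPM and 140 to 488 CPM, and Rps27 and Rps27l 259 to 608 CPM and 92.3 to 163 CPM. Rpl10 stood at 376 to 831 CPM while Rpl10l had 0 counts. In the shallowest library 3 counts would be 0.878 CPM before TMM factors. The X-linked Rps4x stood at 3614 to 6811 CPM, and Rps4l is annotated as a pseudogene and is no member. Rps19bp1, which binds Rps19 and is a member by its name, was at 45.2 to 65.5 CPM. The 6 tested variants had 0 calls in every comparison.

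The highest mean counts were those of Rps14 (54131), Rpl27a (31552) and Rplp1 (29217), and the 3 untested genes had the lowest. Such levels depend on how reads were shared with copies. Ribosomal protein genes have many processed pseudogenes, which are reverse-transcribed copies of their mRNA, and 50 of the 86 members had at least 1 near copy (at least 97% identity over at least 75 of the last 150 transcript bases). In 21 members the copies together held more counts than the gene. The last 30 coding bases of 3 members and of copies that held many of the counts show why 3′ reads are hard to place. They are printed 5′ to 3′ from GRCm38, with a capital where a copy differs from the gene.
Rps12, chr10:23785211-23785240, minus strand: atcgaggaatacttcaagtgcaagaaataa
Rps12-ps3, chr19:59322740-59322769, plus strand: atcgaggaatacttcaagtgcaagaaataa
Rps12-ps9, chr8:123206992-123207021, plus strand: atcgaggaatacttcaagtgcaagaaataa
Rpl36, chr17:56614184-56614213, plus strand: atgaggaaggcggcggccaagaaggattga
Rpl36-ps12, chr6:108140165-108140194, minus strand: atgaggaaggcAgcggccaagaaggattga
Rps6, chr4:86854702-86854731, minus strand: acttctaagtctgagtccagtcaaaaatga
Rps6-ps4, chr2:75191073-75191102, minus strand: acttctaagtctgagtccagtcaaaaatga
Rps12 had a mean of 1033 counts, while Rps12-ps3 had 25438 and Rps12-ps9 had 24290. Rps12-ps3 held 17.7 to 46.3 times the counts of Rps12 in the 16 libraries, and 8.95 and 9.22 times in the 2 that stand apart. Rpl36-ps12 held 0.936 to 1.01 times the counts of Rpl36 and Rpl27-ps3 0.967 to 0.979 times those of Rpl27, nearly the same ratio in every library. In all, 257 symbols of ribosomal protein copies, nearly all annotated as pseudogenes, took 3.01% and 3.14% of the counts in DMSO replicate 3 and IFNγ replicate 2 and 5.64% to 7.72% in the other 16. How reads with several alignments were treated is not given in the sources used here, so the levels of Rps12, Rpl23a, Rpl35a, Rps2 and Rps6, whose copies hold at least 4.22 times their counts, are uncertain.

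**Figure D5:**
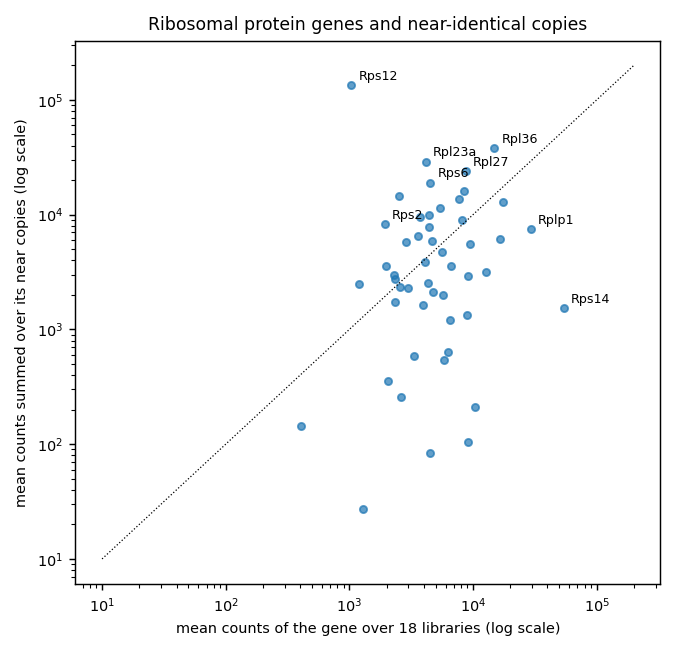
Mean counts over 18 libraries of each ribosomal protein gene with counted near copies (horizontal axis, log scale) against the summed mean counts of those copies (vertical axis, log scale). The dotted line marks equal counts. Rps12 stands highest above it, with 1033 counts against 134483 in its copies, and Rps14 is far below it.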

How the data were processed

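The authors trimmed the reads with cutadapt 1.7, aligned them to GRCm38 (mm10) with HISAT2 2.1.0 and deposited raw counts per gene from featureCounts, with no normalization. The settings given count a read for every gene whose exons it overlaps and name no strand, so overlapping and antisense genes share reads. Of the 86 members, 39 share exon bases with another gene, and 30 contain small nucleolar RNA genes.

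Identifiers were joined to GENCODE vM21, and 42462 of 43629 matched. The release the authors used is not given in the sources used here. Of all counts, 0.408% fell on identifiers without a match, which stayed in totals and tests. All 18 value columns were mapped to samples by title. The analysis used R 4.3.3 with edgeR 4.0.16, limma 3.58.1 and DESeq2 1.42.0, Python 3.11.15 with pandas 2.3.3, numpy 2.4.6, scipy 1.17.1 and matplotlib 3.10.9, and blastn 2.17.0 for near copies. Genes were kept by filterByExpr, scaled by TMM and fitted with glmQLFit with a mean per condition. Contrasts were tested by glmQLFTest with Benjamini-Hochberg adjustment over all genes, and the fits were tested on simulated data. The study itself used limma-voom. A standard error is the fold change divided by the square root of the F statistic. Levels are CPM with TMM factors. Scaled to total counts without TMM factors, 3 counts correspond to 0.382 to 0.878 CPM. Intervals cover the spread between libraries.

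Genes were named by a rule: 11 commonly used members, the variants with their relatives, the 2 lowest p-values per comparison, and the 3 highest and 3 lowest mean counts. The members, lists and rule were chosen with earlier results of these data known. For a gene named by its p, a lack of overlap between conditions describes the same values and is no further support. The share of all genes without overlap is not given. The alternatives were DESeq2, limma-voom, other filters and scalings, the replicate number as a block, only the groups compared, Gm42418 removed, each replicate left out, and both libraries that stand apart left out. Adding the counts of named copies to each gene was chosen after seeing the data.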

Additional observations from a re-analysis of the deposited data

How the results depend on the processing

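With all libraries and under the alternatives run, 243 counts of members called were computed over 11 comparisons, and 0 of them were above 0. A single replicate was left out only for the comparisons that use its condition. The replicate number as a block also gave 0 calls in each comparison. The correlation of deviations from the condition mean between same-numbered libraries ran from −0.80 to 0.48 with a median of −0.02, and 15 of 45 were over 0.1. Between libraries of different numbers the median was −0.02 as well, and 28 of 90 were over 0.1. The numbers thus gave no sign of pairing, and the block was no part of the main model. These correlations include the 2 libraries that stand apart, which carry different numbers, so pairing is not excluded. With total counts in place of TMM factors the median for A-241 with IFNγ against IFNγ was 0.14 and not 0.00. With named copies added and both libraries that stand apart left out, chosen after seeing the data, the medians against DMSO were −0.12 for A-241 and −0.052 for A-485. With copies added Rps12 turned direction, to −0.060 for IFNγ against DMSO and 0.37 for the interaction with A-485, and with both libraries also left out to −0.13 and 0.45. The cause was not tested. The mean share of counts over the libraries was 14.3% without Gm42418. Leaving out each replicate in turn moved the median for IFNγ against DMSO between 0.04 and 0.17, for A-241 between −0.06 and 0.07 and for A-485 between 0.01 and 0.13. For A-241 with IFNγ against IFNγ it moved between −0.09 and 0.09, and for A-485 with IFNγ against IFNγ between 0.00 and 0.14. Sequencing depth limits Rpl3l, Rpl10l and Rpl39l, of which levels under about 3 counts could not be seen.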

Other observations

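Genes that work with the ribosomal proteins were taken from lists by name. Among 77 mitochondrial ribosomal protein genes, which build the separate ribosome of mitochondria, 1 was called in the comparisons with all libraries: Mrpl1 was higher in A-241 than in DMSO, with a log2 fold change of 0.86 (SE 0.19, adjusted p = 0.00877, edgeR), where 4.35% of all genes were called. Without DMSO replicate 3 and IFNγ replicate 2, Mrpl1 was called again (0.72, adjusted p = 0.00893, edgeR) and Mrps6 was called lower (−0.94, adjusted p = 0.0042, edgeR), where 8.13% of all genes were called. With all libraries the median of the 77 genes in this comparison was 0.12, beside 0.01 for the cytosolic members and 0.01 for all genes. Without the 2 libraries it was 0.07, beside −0.09 for the cytosolic members and −0.01 for all genes.

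Of 8 non-coding hosts of small nucleolar RNAs, which guide the modification of ribosomal RNA, 6 were tested and 0 were called with all libraries. With the same 2 libraries left out, 2 were called lower in A-241 than in DMSO, where 8.13% of all genes were called. They were Snhg5 (log2 fold change −0.80, adjusted p = 0.0021, edgeR) and Snhg15 (−0.70, adjusted p = 0.00876, edgeR). In A-241 with IFNγ against IFNγ, where 7.82% of all genes were called, 3 were called lower: Snhg5 (−0.75, adjusted p = 0.00313), Snhg15 (−0.68, adjusted p = 0.00734) and Snhg3 (−0.77, adjusted p = 0.0064), all by edgeR. With all libraries these 5 values were −0.60, −0.45, −0.53, −0.48 and −0.61, and their adjusted p by edgeR was between 0.111 and 0.284. Of 20 mRNAs of translation factors and others with an oligopyrimidine tract, 0 were called in any comparison by edgeR with all libraries, and 5 had an unadjusted p under 0.05 for A-241 against DMSO, near the 23.2% of all genes at this threshold. All were lower: Eif4b, Eif3k, Eef2, Hnrnpa1 and Npm1.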
